A study of Rattus norvegicus with 24 samples.

Results

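The genes described are the nuclear-encoded subunits of the respiratory chain, measured by RNA-Seq in the frontal cortex of adult male Sprague-Dawley rats. They were chosen by gene name: every reference gene outside the mitochondrial chromosome whose name begins with Nduf, Uqcr, Cox4, Cox5, Cox6, Cox7, Cox8 or Atp5, together with Sdha, Sdhb, Sdhc, Sdhd and Cyc1. This rule found 99 of the 32883 reference genes, which carry 95 distinct names and lie on 20 chromosomes. By their known place in the chain, 38 belong to complex I, 4 to complex II, 10 to complex III, 22 to complex IV and 17 to complex V, and a further 8 are assembly factors of complex I (Ndufaf genes). Ndufa4 and Ndufa4l2, named as complex I genes, are counted in complex IV, where Ndufa4 is now placed, and Ndufa4 is among its 12 ubiquitous subunits. Of these, 94 had a mean level of at least 1 on the scale used below and were tested. The other 5 were Cox8c and the pseudogene Cox6c-ps1, listed at 0 in all 24 rats, and Cox7b2, Cox8b and Ndufs6, whose entry spans 412 bases on chromosome 2.

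The rats inhaled an aerosol of tungsten particles, and brain tissue was taken 24 h after exposure. By the labels, Control air held 0 mg/m3 of tungsten, while Low rats breathed 5 mg/m3 and High rats 80 mg/m3. Each group had 8 rats, and all 3 groups carry the same treatment entry. Each rat gave 1 stranded library of polyadenylated RNA and carries its own number, with Control rats numbered 49 to 56, Low rats 57 to 64 and High rats 65 to 72. The deposited tables hold the coverage of each gene, which is the mean read depth per base, and no read counts. Coverage was divided by its sum over all reference genes of the rat and multiplied by 1000000. The result, called scaled coverage, is already per base, so levels of different genes can be compared.

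The tables differ between groups in ways that touch every comparison with Low. In units of 1000000, the sum of reference coverage ranged from 1.67 to 2.82 for Control rats, from 1.64 to 3.07 for Low and from 1.77 to 2.67 for High. The Control and High tables also list loci assembled from the reads (46334 to 159573 and 50235 to 64010), whereas the Low tables list 0. In the Control and High tables, 91 to 95 of the 99 members had an assembled locus on the same strand. A difference in how the Low tables were made and an effect of the low dose cannot be told apart. A set of 7 libraries, Control 56 and Low 57 to 62, had a scaled coverage of 5449 to 8102 on mitochondrial tRNA genes of the minus strand, against 84.9 to 155 in the other 17. Results that rest on these libraries are given with and without them. Without them, Low keeps only rats 63 and 64, so a call can be lost or gained through the small group. All 8 neuronal, 6 astrocyte and 6 oligodendrocyte marker genes looked for were found, and none of them was at 0 in every rat. In bulk tissue, a change in the share of a cell type and a change in the RNA per cell cannot be told apart.

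The respiratory chain sits in the inner mitochondrial membrane. Complex I (NADH dehydrogenase) and complex II (succinate dehydrogenase) pass electrons to ubiquinone, complex III passes them on to cytochrome c, and complex IV (cytochrome c oxidase) passes them to oxygen. The protons pumped on the way drive complex V, the ATP synthase. A few core subunits of complexes I, III, IV and V are encoded by mitochondrial DNA, while all others, and the whole of complex II, are encoded in the nucleus and imported. Neurons depend on this pathway for most of their ATP, which they spend largely on restoring ion gradients.

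Promoters of respiratory chain genes are known for sites of the factors NRF-1 and GABP, an ETS protein, and these motifs were searched in the RefSeq promoter table (GRCr8), which matched 81 of the 95 names. In the 250 bases before the transcript start, on both strands, the NRF-1 motif (GCGCA, any base, then GCGC) was found in 13 of the 81 promoters (16%) and in 3.75% of all 33469 promoters in the table. The ETS motif CCGGAAG was found in 20 (24.7%), against 7.27% of all. The YY1 motif ATGGCGGC and the cyclic AMP response element TGACGTCA were each found in 2 (2.47%), against 1.15% and 1.59%. By complex, the ETS motif was in 7 of 32 promoters of complex I, 2 of 4 of complex II, 3 of 6 of complex III, 2 of 17 of complex IV and 4 of 15 of complex V. The NRF-1 motif was in 6 promoters of complex I, 1 of complex II, 1 of complex III, 3 of complex V and none of the 17 of complex IV. The comparison set holds every promoter of the table, whether or not its gene is expressed in this tissue, while a single promoter was kept per member name. The sets were not matched for level. A match describes letters and is not a bound site.

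The 150 bases before the start are printed for 4 of the 5 members whose difference between the doses passed the test below (the other is a second entry of Cox6b1), and for Atp5f1b, the member with the highest level in Control. Capitals mark motif matches on either strand. The positions on GRCr8, which is not the build of the deposited tables, are chr1:184599090-184599239 on the plus strand for Uqcrc2, chr9:72073606-72073755 on the minus strand for Ndufs1, chr2:137601736-137601885 on the minus strand for Ndufc1, chr14:83791915-83792064 on the minus strand for Uqcr10 and chr7:1099908-1100057 on the plus strand for Atp5f1b.
Uqcrc2: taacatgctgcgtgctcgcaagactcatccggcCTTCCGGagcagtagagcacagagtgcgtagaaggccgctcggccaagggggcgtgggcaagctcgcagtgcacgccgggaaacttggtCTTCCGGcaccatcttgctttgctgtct
Ndufs1: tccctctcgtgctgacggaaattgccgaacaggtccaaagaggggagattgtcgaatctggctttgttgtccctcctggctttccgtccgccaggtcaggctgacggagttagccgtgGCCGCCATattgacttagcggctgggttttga
Ndufc1: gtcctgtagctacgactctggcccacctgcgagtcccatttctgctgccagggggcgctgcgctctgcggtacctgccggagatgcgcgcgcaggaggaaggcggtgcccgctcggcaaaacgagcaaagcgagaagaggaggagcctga
Uqcr10: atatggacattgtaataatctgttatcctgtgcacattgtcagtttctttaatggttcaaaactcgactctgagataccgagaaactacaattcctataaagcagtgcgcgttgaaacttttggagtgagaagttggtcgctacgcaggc
Atp5f1b: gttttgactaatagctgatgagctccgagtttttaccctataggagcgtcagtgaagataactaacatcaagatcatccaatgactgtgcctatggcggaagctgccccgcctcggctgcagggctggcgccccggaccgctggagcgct
Uqcrc2 held the ETS motif at 2 places, both read on the opposite strand, and Ndufs1 held the YY1 motif, also on the opposite strand. Ndufc1, Uqcr10 and Atp5f1b held none of the 4 motifs in these windows. In the longer stretch searched for the counts above, Ndufs1 also held an ETS motif. The printed promoters were picked by test result or level, and a link between motifs and differences was not tested.

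The members were among the more abundant genes of the tissue. In Control, the 94 tested members had a median level of 159, against 15.4 for all 15644 tested genes, and 65 of them were above 100, a level that 1431 genes reached in all. Together the 99 members made up 1.83% of the reference coverage in the median Control rat. Complexes IV and V each supplied close to 29% of this sum (medians 29.4% and 28.9%), complex I 27.0%, complex III 9.92%, complex II 3.62% and the assembly factors 1.06%. Atp5f1b, the catalytic beta subunit of the ATP synthase, had the highest level in Control (890 to 1089, median 1005), followed in complex V by the alpha subunit Atp5f1a (446 to 569, median 546). In complex IV, Cox4i1 (821 to 1177, median 911) and Cox6a1 (519 to 755, median 594) were highest. In complex III the small subunit Uqcr11 (442 to 605, median 479) and the hinge protein Uqcrh (241 to 345, median 279) were highest, and in complex I the accessory subunits Ndufb9 (251 to 371, median 297) and Ndufb8 (223 to 350, median 295), whose values overlapped. The assembly factors of complex I, which are not part of the finished enzyme, had a median of 21.3 over the 8 genes.

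Complex II has 4 subunits and no mitochondrial gene. Sdha, the flavoprotein that oxidises succinate, was at 202 to 241 in Control (median 226), and Sdhb, the iron-sulfur subunit, at 135 to 168 (median 157). The membrane anchors Sdhc and Sdhd were at 149 to 186 (median 171) and 95.2 to 129 (median 109). Cyc1, the cytochrome c1 of complex III, was at 175 to 220 (median 191). Of the subunits that carry electrons, Uqcrfs1, the Rieske iron-sulfur protein of complex III, was at 136 to 187 (median 160), and its values overlapped those of Cyc1.

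Subunits with tissue-specific forms were almost entirely in the ubiquitous form. Cox4i2, the isoform known from lung, was at 0.181% to 0.559% of Cox4i1 in Control, and Cox6a2, known from heart and muscle, at 0.296% to 1.85% of Cox6a1. Cox6b2, known from testis, was at 0.359% to 2.52% of Cox6b1 on chromosome 1, and Cox8b at 0% to 0.328% of Cox8a. Ndufa4l2, a relative of Ndufa4 known from the response to low oxygen, was at 1.005% to 1.92% of Ndufa4. Cox7a1, the muscle form of Cox7a, was at 0.54 to 1.97 in scaled coverage, and Cox7a2l, a factor of supercomplex assembly, at 143 to 192. All of these Control ranges overlapped those of Low and High. The 3 genes for the same c-ring protein were all expressed: Atp5mc3 at 349 to 586, Atp5mc1 at 199 to 327 and Atp5mc2 at 191 to 269, so that every Control value of Atp5mc3 lay above all of those of the other two.

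For 4 names the tables hold an entry on a second chromosome, and reads can be split or shared between entries of such similar genes, so their values are uncertain. In Control, the entry of Ndufv3 on chromosome 13 was at 1.37% to 4.78% of the one on chromosome 20, and the entry of Ndufa10l1 on chromosome 6 at 6.03% to 14.3% of the one on chromosome 9. The entry of Uqcrb on chromosome 1, which spans 475 bases, was at 171% to 228% of the one on chromosome 7. The entry of Cox6b1 on chromosome 2, which spans 261 bases, was at 45.8% to 108% of the one on chromosome 1.

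Summed over its members, no complex set the groups apart. The sum over all 99 members was 18509 ± 1819 in Control, 19106 ± 2554 in Low and 18760 ± 1047 in High (SD, n = 8 each). The summed level of complex I was 5007 ± 459, 5141 ± 653 and 5102 ± 274 in the same order, that of complex IV 5478 ± 677, 5531 ± 839 and 5580 ± 400, and that of complex V 5347 ± 504, 5635 ± 761 and 5404 ± 291. Complex II was at 657 ± 33.8, 703 ± 68.2 and 654 ± 34.6, and complex III at 1829 ± 159, 1900 ± 238 and 1825 ± 79.4. All of these differences between means were smaller than the SD of either group except that of complex II between Low and the other groups, and there the values overlapped (Control 580 to 693, Low 599 to 828, High 603 to 702). Without Control 49 and Low 57, the 2 rats with the highest sums, the sum over all members was 17946 ± 947 in Control and 18282 ± 1123 in Low (n = 7 each). High was unchanged at 18760 ± 1047 (n = 8). In that setting complex IV was at 5258 ± 285 in Control, 5256 ± 340 in Low and 5580 ± 400 in High. Its difference between High and Control was then larger than the Control SD, but the values overlapped (Control 4697 to 5533, High 4989 to 6350). Without libraries 56 to 62 it was 18506.5 ± 1964 in Control (n = 7), and Low 63 and 64 had 17284 and 19160.

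**Figure D1:**
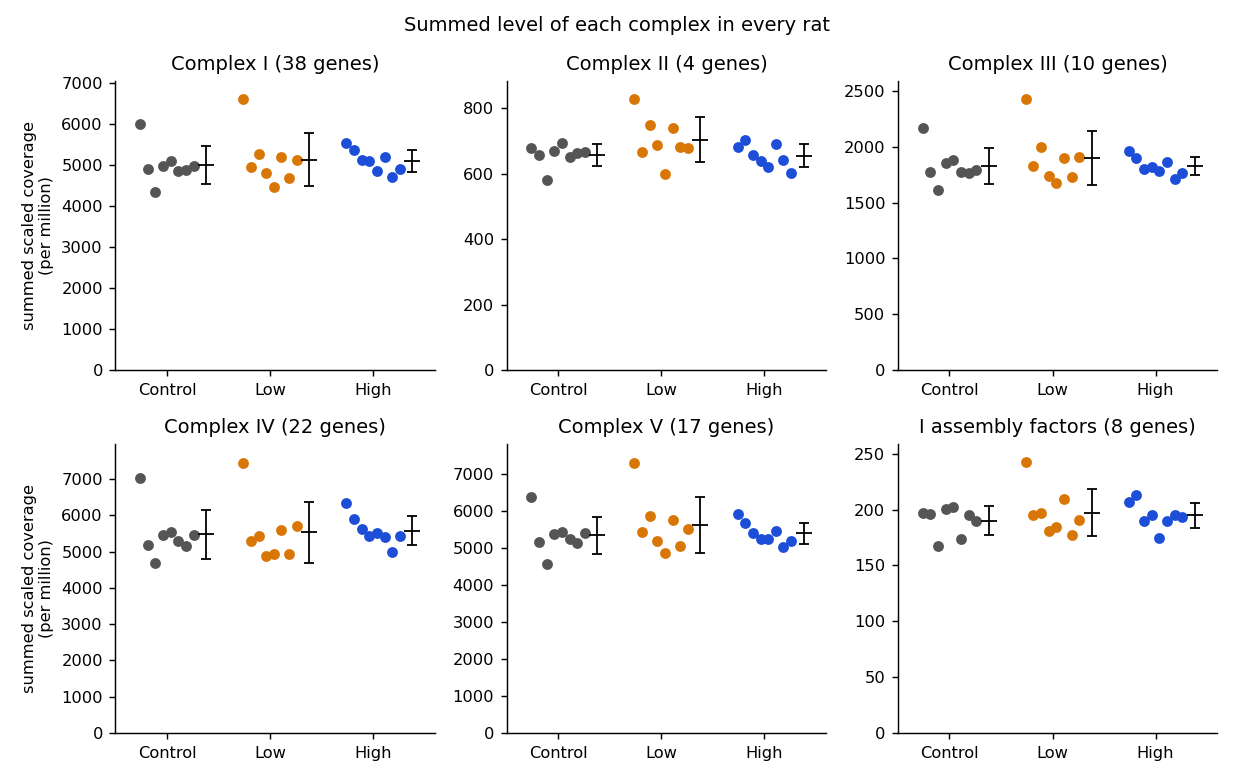
Summed scaled coverage of the members of each complex (vertical axis, per 1000000 of reference coverage) in every rat of Control, Low and High; points are rats in the order of their numbers and the bars give mean and SD (n = 8). The groups overlap in all 6 panels, and the highest points of complexes I, III, IV and V are Control 49 and Low 57, for example 7021 and 7456 in complex IV.

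Low was compared with Control to ask what the lower concentration did to the chain. The comparison used limma, with all 24 rats in 1 fit and p-values adjusted by Benjamini-Hochberg over all 15644 genes, and called a gene at an adjusted p under 0.05. It called 2 of the 94 members, both lower in Low, while 6.11% of all tested genes were called. The 0 members called higher stood beside 1.23% of all genes, and the 2 called lower beside 4.88%. At an unadjusted p under 0.05 there were 12 members, against 18.4% of all genes. The difference was above 0 for 74 members and for 66.5% of all genes. The median difference of the members was 0.045 on the log2 scale, against 0.062 for all genes, and under median-of-ratios scaling it was -0.014 against 0.0088, so its direction depends on the scaling. Without Low 57 it was -0.012. In each complex the median was small: 0.049 for complex I, 0.086 for complex II, 0.033 for complex III, 0.030 for complex IV, 0.061 for complex V and 0.031 for the assembly factors. The standard error of a single member's difference had a median of 0.082. When coverage was scaled to genes outside the mitochondrial chromosome, 10 of 95 tested members were called, beside 10.8% of all genes. Of these members, 8 were higher and 2 lower in Low. The 8 were Uqcrc2, Sdha, Ndufaf4, Ndufs1, Atp5f1c, the entry of Ndufa10l1 on chromosome 9, Atp5f1a and Atp5f1b. The deposited TPM column gave 13 calls upward and 2 downward among 94 tested, beside 25.4% of all genes called. FPKM gave 88 upward and 1 downward among 92 tested, where 89.7% of all genes were called and their median was itself 0.53.

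The entry of Ndufa10l1 on chromosome 6 (chr6:62796456-62798384 on the minus strand, as placed by the tables), named after an accessory subunit of complex I, was the member with the largest decrease. Its scaled coverage was 6.46 to 15.2 in Control (median 14.4), while Low rats had 0.19 to 18.5 (median 3.90) and High rats 6.35 to 21.3 (median 7.13). The groups overlapped, since Low 57 (18.5) was above every Control rat and Control 50 (6.46) was below Low 60 (10.3) as well as Low 57. The log2 difference from Control was -1.52 (SE 0.40, limma adjusted p = 0.0224), and it overlaps a reference gene on the same strand, from which its reads cannot be told apart. Without Low 59 the adjusted p was 0.0566, and without libraries 56 to 62 the difference was -2.31 (adjusted p = 0.0141). The latter setting leaves out Low 57 and Low 60 and keeps only Low 63 and 64 in that group. By the exact Wilcoxon rank-sum test the adjusted p was 0.176.

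The second was the entry of Cox6b1 on chromosome 2 (chr2:211337271-211337531 on the plus strand), named after the small subunit of complex IV that faces the space between the membranes. It was at 127 to 358 in Control (median 242), while Low rats had 103 to 266 (median 126) and High rats 213 to 306 (median 252). The log2 difference was -0.66 in Low against Control (SE 0.19, limma adjusted p = 0.0346) and -0.76 in Low against High (adjusted p = 0.0084). It followed the 7 libraries and not the group: Control 56 (127) lay with Low 57 to 62 (103 to 167), and Low 63 and 64 (229 and 266) lay with the other rats (200 to 358). The call against Control was lost when any of 11 rats was left out (Control 49, 50, 52, 53, 54 and 55 and Low 58 to 62), with adjusted p-values of 0.0557 to 0.0818. Without libraries 56 to 62 the differences were -0.041 (adjusted p = 0.949) and -0.017 (adjusted p = 0.969). It was the only member whose values in these 7 libraries were all below those of the other 17, as for 391 of all tested genes (2.5%). No member lay above, against 0.607% of all genes. The entry of Cox6b1 on chromosome 1 was at 226 to 336 in Control, and Low (241 to 357) and High (251 to 317) overlapped it.

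The 3 largest increases from Control to Low among the members did not pass the test. Ndufaf4, an assembly factor of complex I, differed by 0.21 (SE 0.072, limma adjusted p = 0.0860), Ndufs1 by 0.18 (adjusted p = 0.144) and Atp5f1c, the gamma subunit that forms the rotating shaft of the ATP synthase, by 0.16 (adjusted p = 0.136). Cox6a2 differed by -0.61 with an SE of 0.35 (adjusted p = 0.367). Among the subunits of complex II, the differences were 0.13 for Sdha (adjusted p = 0.194), 0.12 for Sdhb, 0.039 for Sdhc and 0.049 for Sdhd, and Cyc1 differed by 0.042.

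High was compared with Control in the same fit, and 0 of the 94 members passed, as did 0% of all tested genes. At an unadjusted p under 0.05 there was 1 member, beside 2.11% of all genes: Ndufa1, a small accessory subunit of complex I encoded on the X chromosome. Its values were 19.1 to 28.7 in Control (median 24.4) and 23.0 to 34.8 in High (median 31.3), with a log2 difference of 0.30 (SE 0.12, limma adjusted p = 0.999). The exact Wilcoxon rank-sum test also called 0 members, with 3 at an unadjusted p under 0.05. The difference was above 0 for 63 members and for 36% of all genes. Groups without overlap were seen for 0 members, and High lay wholly above Control for 0.00639% of all genes. The median difference was 0.022 for the members and -0.031 for all genes, and 90 of the 94 members differed by less than 0.2 in either direction. By complex the medians were 0.014 (I), -0.016 (II), 0.013 (III), 0.028 (IV), 0.024 (V) and 0.052 (assembly factors). The members with the largest other differences were Cox4i2 at 0.26 (SE 0.19), Cox7a1 at 0.18 (SE 0.13), the entry of Ndufa10l1 on chromosome 6 at -0.41 (SE 0.40), Cox6a2 at -0.30 (SE 0.35) and Ndufaf7, an assembly factor, at -0.095 (SE 0.074). The standard errors of the members ran from 0.054 to 0.40, so the smallest change that could be called differed from member to member. Without Control 49 and Low 57, 0 members were called, beside 2.49% of all genes, 11 members had an unadjusted p under 0.05, and the median of the members was 0.064.

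**Figure D2:**
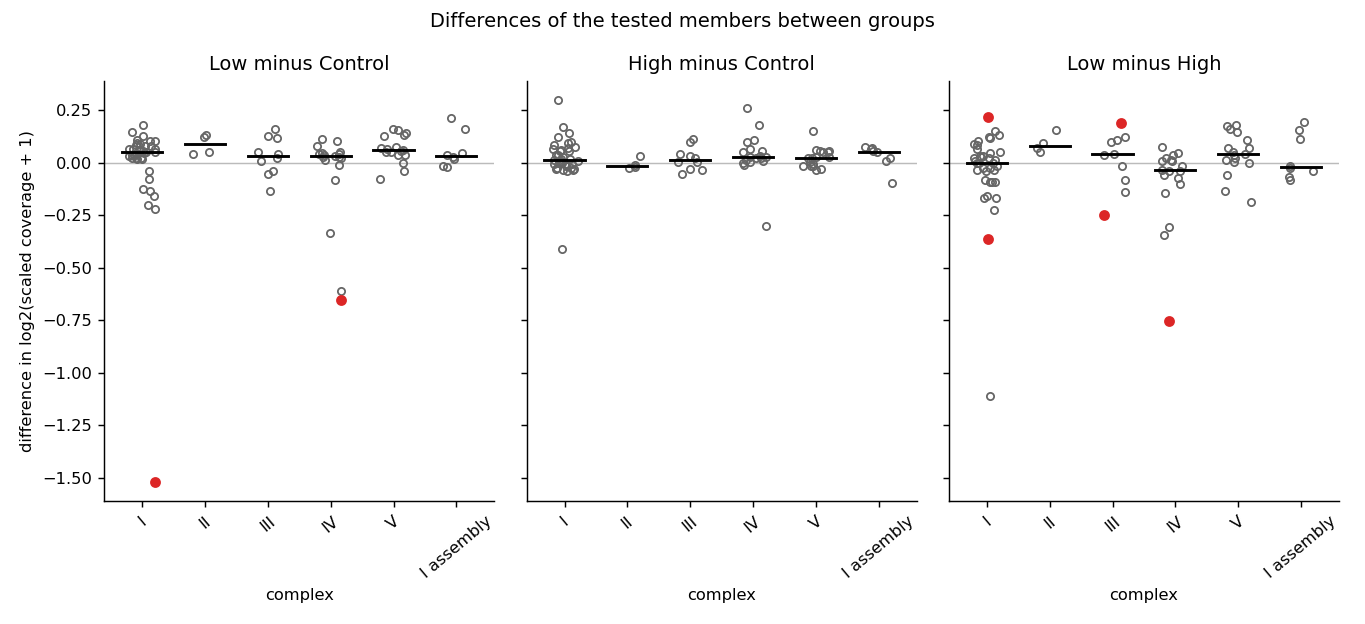
Difference in log2(scaled coverage + 1) (vertical axis) of each of the 94 tested members, by complex, for Low minus Control, High minus Control and Low minus High; open points did not pass the test, filled red points did, and black lines are medians. The 2, 0 and 5 filled points lie among members whose medians by complex run from -0.036 to 0.086.

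Low was compared with High to ask whether the doses differ, and 5 of the 94 members passed, beside 11.7% of all tested genes. Higher in Low were 2 (5.3% of all genes) and lower were 3 (6.39%). At an unadjusted p under 0.05 there were 14 members, against 29.1% of all genes. The difference was above 0 for 51 members and for 69.9% of all genes. The median of the members was 0.0094 and that of all genes 0.091. Under median-of-ratios scaling they were -0.087 and 0.0030, with 0 members called higher and 3 lower, beside 10.6% of all genes called. Scaled to genes outside the mitochondrial chromosome, 8 members were called higher and 3 lower, beside 16.7% of all genes called. For no member were the values of 2 groups free of overlap: 0 of 94 in each comparison, while 0.0831% of all genes lay wholly above and 1.44% wholly below Control in Low, and 0.262% and 2% wholly above and below High.

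The members that were higher in Low than in High are large core subunits. Uqcrc2 (chr1:190555177-190585734, plus strand), a core protein of complex III whose promoter with 2 ETS matches is printed above, was at 193 to 220 in Control (median 219), while Low rats had 210 to 280 (median 233) and High rats 198 to 235 (median 208). Low and High overlapped between 210 and 235. The log2 difference was 0.19 (SE 0.054, limma adjusted p = 0.0246), but 0.092 under median-of-ratios scaling (adjusted p = 0.413) and -0.030 with no scaling. The adjusted p was 0.0598, 0.0531 and 0.0501 without Low 59, Low 62 or High 72. Uqcrc2 was also the tested member with the smallest spread in Control, a coefficient of variation of 4.81%, against a median of 12.1% for the members and 16.9% for all tested genes. It overlaps a reference gene on the opposite strand, and whether strand was used in the authors' quantification is not stated in what was read here.

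Ndufs1 (chr9:69919867-69953182, minus strand), the largest iron-sulfur subunit of complex I, was at 112 to 150 in Control (median 137), while Low rats had 125 to 175 (median 152) and High rats 122 to 151 (median 129). The log2 difference between the doses was 0.22 (SE 0.069, limma adjusted p = 0.0402), and 0.12 under median-of-ratios scaling (adjusted p = 0.113). Its call was lost when any of 11 rats was left out (Low 58, 59, 60, 62 and 63 and High 65, 66, 67, 68, 69 and 72), with adjusted p-values of 0.0518 to 0.0953. Without libraries 56 to 62 the difference was 0.11 for Uqcrc2 (adjusted p = 0.566) and 0.21 for Ndufs1 (adjusted p = 0.485), with only Low 63 and 64 left in that group.

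The members that were lower in Low are small subunits. Ndufc1 (chr2:140462900-140464607, minus strand), a membrane-spanning accessory subunit of complex I, was at 52.3 to 75.6 in Control (median 70.1), while Low rats had 46.5 to 77.5 (median 58.4) and High rats 62.9 to 82.0 (median 78.4). Low 57 (77.5) stood above the other 7 Low rats (46.5 to 62.1), all of which lay below the lowest High rat, and Control 56 (52.3) stood below the other Control rats (67.8 to 75.6). The log2 difference was -0.36 (SE 0.083, limma adjusted p = 0.0048), and the adjusted p stayed between 0.00050 and 0.0126 when each rat was left out. Without libraries 56 to 62 it was -0.31 (adjusted p = 0.0889). Uqcr10 (chr14:84935486-84937725, minus strand), a small subunit of complex III, was at 41.7 to 59.8 in Control (median 51.9), while Low rats had 36.1 to 52.4 (median 49.3) and High rats 50.7 to 61.9 (median 55.7). Its difference was -0.25 (SE 0.080, adjusted p = 0.0429), and its call was lost without any of 10 rats (Control 50, Low 58, 60, 61 and 62 and High 65, 66, 68, 69 and 72), with adjusted p-values of 0.0501 to 0.0825. Without libraries 56 to 62 it was -0.12 (adjusted p = 0.659). In the FPKM column, where all genes had a median of 0.52 between the doses, the differences of Ndufc1 and Uqcr10 were 0.095 and 0.20.

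**Figure D3:**
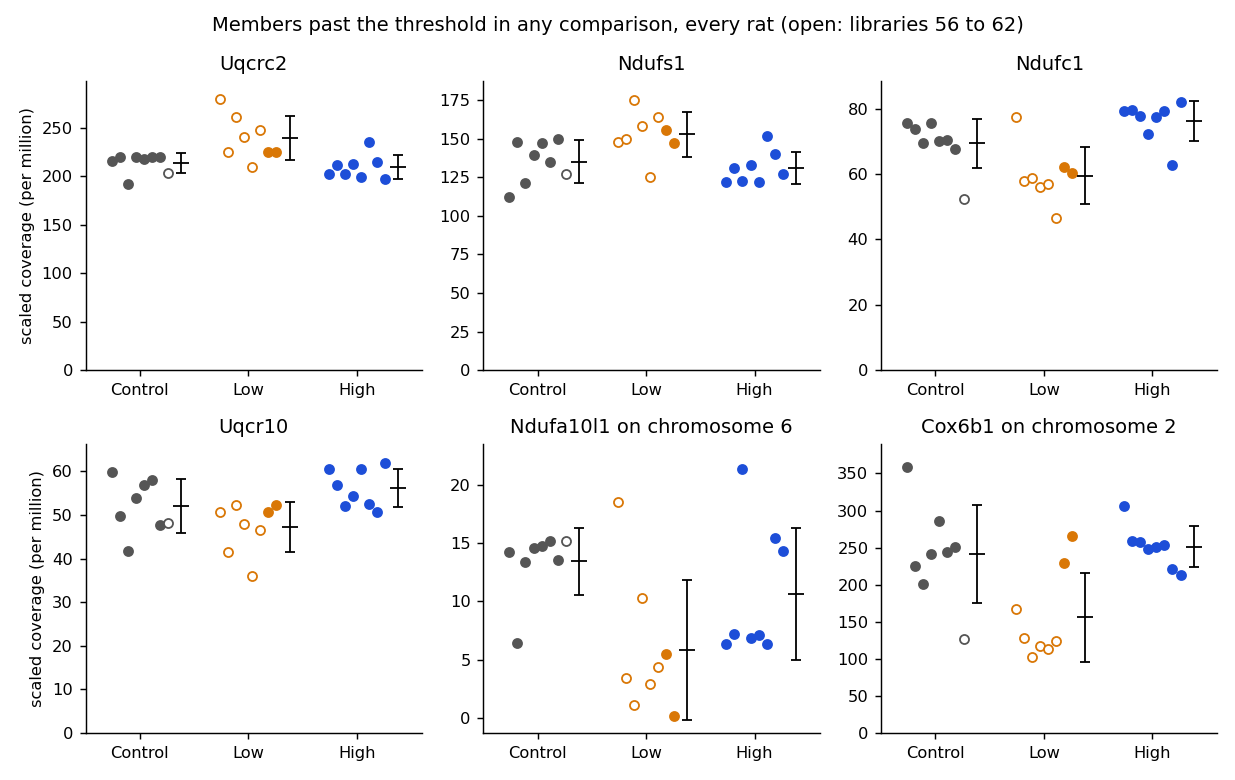
Scaled coverage (vertical axis, per 1000000) of the 6 members past the threshold in any comparison, in every rat of Control, Low and High; open points are libraries 56 to 62 and the bars give mean and SD (n = 8). All groups overlap, and in the panel of Cox6b1 on chromosome 2 the open points (103 to 167) lie below every filled point (200 to 358), whichever the group.

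The same contrast is given by role, without a test. The 7 core subunits of complex I had a median of 0.089 in Low minus High, the pair of core proteins of complex III 0.16, Sdha and Sdhb 0.12 and the 5 subunits of the F1 part of complex V 0.16, beside 0.091 for all tested genes. The 30 accessory subunits of complex I had a median of -0.0098, the 6 small subunits of complex III -0.050, the 12 ubiquitous subunits of complex IV 0.0060 and the 4 small membrane subunits of complex V -0.027. Entries on a second chromosome count separately here: Ndufa10l1 and Ndufv3 among the 30, Uqcrb among the 6 and Cox6b1 among the 12. Between these lay the electron-carrying subunits of complex III (0.073), the membrane anchors of complex II (0.060), the peripheral stalk of complex V (0.052), its inhibitory factor (0.048) and the c ring (0.014, with members from -0.13 to 0.11). The assembly factors had -0.022, the supercomplex factor Cox7a2l -0.073 and the 5 alternative isoforms of complex IV -0.15. In Low minus Control, which shares the Low rats, the medians were 0.081, 0.14, 0.13 and 0.13 for the 4 sets named first, and 0.039, -0.017, 0.034 and 0.019 for the 4 named next. The length of the gene moved with this: the 47 members with a span of up to 6494 bases had a median of -0.027 in Low minus High and the 47 longer ones 0.032, and over all tested genes the same cut gave 0.014 and 0.11. The part of gene length in the result was not tested.

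Some single rats differed from the rest of their group in many members at once. In Control 49 the members lay 0.31 above the median of the other 7 Control rats on the log2 scale (median over 94), and 69 of the 94 were above all 7, as were 8.49% of all tested genes, whose median was -0.28. In Low 57 the members lay 0.43 above the other Low rats, and 80 of the 94 were above all 7, as were 17.6% of all tested genes (median -0.093). Control 51 lay at the other end, with 66 of 94 members below all other Control rats (19.3% of all genes), and in Low 61 there were 46 (26.9%). In these rats the members and all tested genes were low alike, with medians of -0.20 and -0.18 in Control 51 and -0.16 and -0.14 in Low 61. These 4 rats were chosen for their values, so the counts describe them and are no test.

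The high level in Control 49 was uneven across roles. All 12 entries of ubiquitous subunits of complex IV (both entries of Cox6b1 included) were above the other 7 Control rats, with a median of 0.39. So were all 6 entries of small subunits of complex III (both of Uqcrb included), all 3 c-ring genes and all 4 small membrane subunits of complex V. Their medians were 0.33, 0.47 and 0.43. The catalytic F1 subunits had a median of 0.12, the core proteins of complex III 0.081, and Sdha and Sdhb -0.059, with neither above the other rats. The 5 tested alternative isoforms of complex IV had a median of -0.32. In Low 57 the large subunits were also high: 0.41 for the core of complex I, 0.32 for F1, 0.34 for the core proteins of complex III and 0.17 for Sdha and Sdhb, beside 0.50 for the ubiquitous subunits of complex IV. The F1 beta subunit Atp5f1b was at 1089 in Control 49 and 1331 in Low 57, against 890 to 1085 and 931 to 1190 in the other rats of their groups.

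Other values moved with these rats. The summed level of 6 choroid plexus markers was 74.1 in Control 49 and 6.91 to 32.4 in the other Control rats, that of 5 endothelial markers was 60.3, the lowest of all 24 rats, and that of 8 neuronal markers was 2139, the lowest in Control (highest 2792). The ratio of coverage to FPKM was lowest in Low 57 (3.34), with Low 64, 61 and 62 at 3.35, 3.50 and 3.55. This ratio ran from 3.34 to 6.42 in Low, from 5.05 to 7.86 in Control and from 4.95 to 7.65 in High. By the sum of reference coverage, in units of 1000000, Low 57 was at 1.74, above Low 64 and 62 (both 1.64). These measures of depth thus rank the rats differently. The choroid plexus sum of Low 57 was 9.13 (6.21 to 17.9 in Low). In Control 51 and Low 61 the mitochondrial chromosome took 30.0% and 33.8% of the reference coverage, the highest of their groups, against medians of 24.4% and 25.1%. The part of these values in the levels of the members was not tested. With the mitochondrial chromosome left out of the sum, the members of Control 49 and Low 57 summed to 30487 and 33588 per 1000000, above all other rats (22460 to 28367). On that scale Control 51 (22836) lay next to Control 55 (22845) as the lowest Control rat, and Low 61 was at 25290, with 4 Low rats below it.

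**Figure D4:**
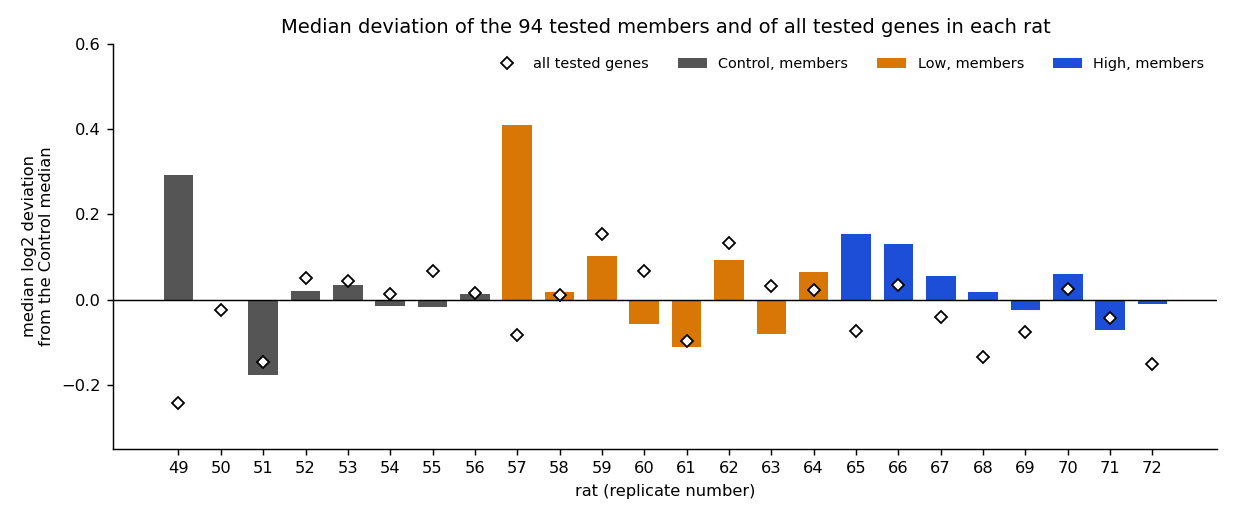
Median log2 deviation from the Control median (vertical axis) of the 94 tested members (bars, coloured by group) and of all tested genes (diamonds) in each rat, named by its number (horizontal axis). Control 49 (0.29) and Low 57 (0.41) have the highest bars while their diamonds lie below 0 (-0.24 and -0.083), and Control 51 has the lowest bar (-0.18).

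The wider pathway was read through 3 lists, of which the assembly factors and electron carriers hold 42 names. Of these, 39 were found (not Pet117, Sco2 and Surf1) and 37 tested. In Low against Control, 1 was called higher and 2 lower, in Low against High 2 higher and 2 lower, and in High against Control 0 in either direction. The genes called in both comparisons with Low were 3 factors of complex IV assembly, and all 3 separated libraries 56 to 62 from the rest. Cox14 was at 24.2 to 41.2 in these 7 libraries, at 75.6 and 93.1 in Low 63 and 64, and at 147 to 205 in the other Control and the High rats. Its log2 differences were -1.84 from Control and -2.09 from High (limma adjusted p = 0.00053 and 9.28e-05). Coa6, which helps to deliver copper to complex IV, was listed at 0 in Low 57 to 62, at 2.54 in Control 56 and at 3.53 to 8.98 elsewhere, with differences of -2.02 and -2.10 (adjusted p = 0.00018 and 9.73e-05). Cox20, a chaperone of the mitochondrially encoded Cox2 subunit, went the other way: 52.2 to 61.7 in these 7 libraries and 26.8 to 41.6 in the other 17, with differences of 0.46 and 0.54 (adjusted p = 0.0276 and 0.0060). Without libraries 56 to 62, which leaves Low 63 and 64, the differences from Control and High were -1.06 and -0.98 for Cox14 (adjusted p = 2.19e-06 and 5.55e-06), -0.37 and -0.35 for Coa6 (adjusted p = 0.789 and 0.567) and 0.091 and 0.069 for Cox20 (adjusted p = 0.853 and 0.811). Acad9, an assembly factor of complex I, was higher in Low than in High by 0.204 (SE 0.064, limma adjusted p = 0.0395), with values of 32.9 to 43.3 against 27.6 to 34.4. Without these libraries the difference was 0.195, with a larger SE of 0.106 (adjusted p = 0.495).

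**Figure D5:**
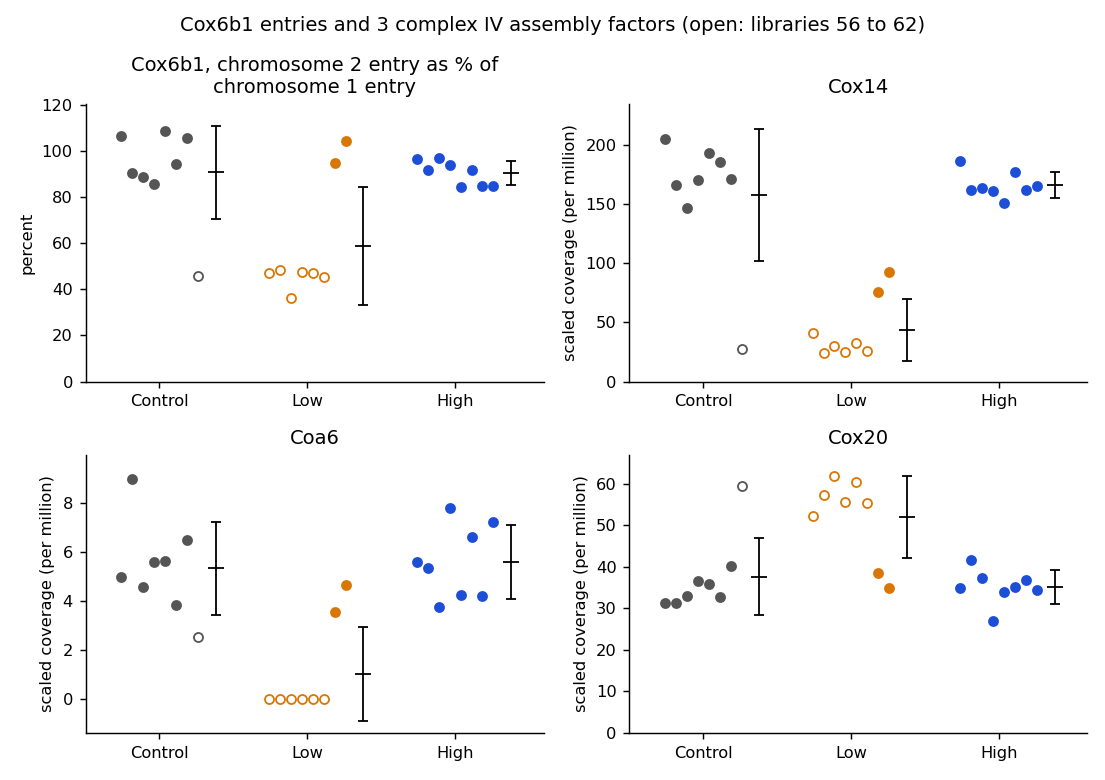
Cox6b1 entry on chromosome 2 as a percent of the entry on chromosome 1, and scaled coverage (per 1000000) of the complex IV assembly factors Cox14, Coa6 and Cox20, in every rat of Control, Low and High; open points are libraries 56 to 62 and the bars give mean and SD (n = 8). The percentage is 36.2 to 48.4 in the open points and 84.4 to 108 in the filled ones, and Control 56 lies with Low 57 to 62 in every panel, at 2.54 against 0 for Coa6.

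Of the 12 regulators of mitochondrial genes, all were tested and 1 was called: Tfb2m, a factor needed to start transcription of mitochondrial DNA, was higher in Low than in High by 0.24 (limma adjusted p = 0.0081), at 18.6 to 22.9 against 15.3 to 19.5, and without libraries 56 to 62 the difference was 0.27 (adjusted p = 0.316). The median of this list was 0.11 in Low minus Control, -0.039 in High minus Control and 0.15 in Low minus High. Of the 13 protein-coding genes of the mitochondrial genome, 1 was lower in Low than in Control and 2 were lower in Low than in High, and High against Control had none. Mt-atp6, which encodes the proton channel of complex V, was at 26722 to 36084 in Control (median 30202), while Low rats had 6046 to 38946 (median 10458) and High rats 27270 to 35426 (median 33518). Low 58 and Low 61 (34927 and 38946) were at the level of the other groups, and the remaining Low rats were at 6046 to 12677. Its log2 difference was -1.27 from Control (limma adjusted p = 0.0050) and -1.36 from High (adjusted p = 0.0021). Without libraries 56 to 62 the differences were -2.20 and -2.30 (adjusted p = 2.75e-10 and 1.13e-10). That setting leaves out Low 58 and Low 61, the Low rats at the level of the other groups, and keeps only Low 63 and 64. Mt-atp8, whose reading frame overlaps that of Mt-atp6 so that reads can be shared, differed by -0.24 between the doses (adjusted p = 0.0487), and by -0.10 without those libraries (adjusted p = 0.675). The nuclear c-ring genes of the same complex, Atp5mc1, Atp5mc2 and Atp5mc3, differed by -0.077, 0.16 and 0.038 between Low and Control, and none passed the test.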

How the data were processed

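RNA-Seq libraries of 24 rats were analysed, 8 per group, grouped by the sample labels. Per the submitters' processing notes the authors used FastQC, Trimmomatic, TopHat2 and StringTie, without versions. The notes name mRatBN7.2, but positions on chromosome 1 of the deposited tables reach 282724300, past the end of that assembly, so positions are printed as deposited. The coverage deposited by the authors is a signal (mean reads over each base) that still grows with library depth. StringTie scaled the deposited FPKM per kilobase and library size. The deposited TPM column sums to 1000000 in Low tables and is used as a score in Control and High tables, where assembled loci are counted on top. No read counts are in the tables, so counting error is unknown.

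Coverage was summed per gene, scaled to 1000000 over the 32883 reference genes, and genes with a mean of at least 1 were tested on log2(value + 1), which shrinks the differences of genes at low levels. The test was limma 3.58.1 (trend, robust) in R 4.3.3, two-sided, with Benjamini-Hochberg adjustment over 15644 genes, tested on simulated data with known answers. No pair of tables was identical. Named members are those past the threshold, the 3 largest increases and decreases in each comparison, the 2 highest in Control of complexes I, III, IV and V, complex II with Cyc1, and the isoform families. The members, lists and alternatives were chosen with earlier results of these data known. Libraries 56 to 62 are a set seen in the data, not a condition. Uqcrfs1 and the 4 single rats were chosen after their values were seen. Alternatives were other pseudocounts, filters, scalings, columns, sets of rats and the exact Wilcoxon rank-sum test. Tables and figures were made with matplotlib 3.10.9, pandas 2.3.3, scipy 1.17.1 and numpy 2.4.6 under Python 3.11.15.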

Additional observations from a re-analysis of the deposited data

Results flagged for a closer look

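In each group of 8 rats, the gap between the most extreme rat and its nearest neighbour was compared with the range of the group (Dixon's 95% critical value 0.526). Of 129 sets of values, 35 passed. Chance would give 6.45 for normally distributed values in sets chosen without regard to them. Some of the members were named for their differences in these data, so this number is only a guide. The sets share rats and genes, so they are not independent.

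Most of these values belonged to Control 49 and Low 57. Among the sums, Control 49 stood above the other Control rats for complex I (6000.0), complex IV (7021) and all members (22453). Low 57 stood above the other Low rats for complex I (6606), complex III (2425), complex IV (7456), complex V (7321) and all members (24879). Control 51 was low for complex II (580).

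Among single members, Control 49 and Low 57 both stood apart for Cox4i1 (1177 and 1359), Cox8a (716 and 734), Cox7b (397 and 439), Ndufa4 (490 and 528) and Uqcr11 (605 and 648). Low 57 alone did so for Ndufb9 (431), Uqcrh (380), Cox6a1 (796), Sdhc (223), Atp5mc1 (343), Atp5mc3 (618), Cox6b1 on chromosome 1 (357) and Cox4i2 (7.42). In High, rat 65 stood apart for Ndufb9 (336) and Uqcr11 (555), and rat 70 for Uqcrc2 (235) and Atp5f1a (581).

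The remaining values were Ndufa10l1 on chromosome 6 in Control 50 (6.46), Ndufc1 in Control 56 (52.3), and Cox6b2 in Control 56 (0.992) and Low 59 (10.3). What set these rats apart was not tested.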

How the results depend on the processing

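No member was called in High against Control under any of the 38 other settings, although without Control 49 and Low 57 the count over all genes went from 0 to 390. Low against Control called 2 members. The count was 1 with no scaling (4.01% of all genes called) and 10 with coverage scaled to genes outside the mitochondrial chromosome (10.8%). Leaving genes in same-strand overlaps out of that sum too gave 8 (8.81%). With FPKM the count was 89 (89.7%), with TPM 15 (25.4%) and with only the 2 groups compared 0 (3.43%). It was 1 with libraries 56 to 62 as a covariate (2.31%) and 1 without Control 49 and Low 57 (4.32%). The exact Wilcoxon rank-sum test gave 0 (2.38%). Low against High called 5 members. The count was 3 with no scaling (7.24% of all genes called) and 3 with median-of-ratios scaling (10.6%). The sums outside the mitochondrial chromosome gave 11 and 11 (16.7% and 15.1%). With FPKM the count was 86 (89.8%), with TPM 11 (25.2%) and with the covariate 0 (2.26%). It was 1 without libraries 56 to 62 (2.26%), 13 without Control 49 and Low 57 (28.8%), and 2 by the Wilcoxon test (7.33%). Without libraries 56 to 62, which leaves Low 63 and 64, none of the 5 was kept, the 1 called being Cox6b2. The differences were then -0.31 for Ndufc1 and 0.21 for Ndufs1, against -0.36 and 0.22 with all rats. Those of Uqcrc2, Uqcr10 and Cox6b1 on chromosome 2 were 0.11, -0.12 and -0.017, against 0.19, -0.25 and -0.76. In Low against Control 2 were called in that setting, of which 1 was kept (Ndufa10l1 on chromosome 6) and the other was Cox6b2. Leaving out 1 rat gave 0 (without Low 59) to 7 (without Low 61) members in Low against Control, beside 4.41% and 6.15% of all genes. In Low against High it gave 2 (without Low 62 or High 72) to 10 (without Low 61), beside 8.08%, 9.7% and 15.8% of all genes. With FPKM the median difference of Low against Control was 0.55 for the members, 0.55 for complex I, 0.59 for II, 0.54 for III, 0.54 for IV, 0.58 for V and 0.49 for the assembly factors (all genes 0.53), and 0.47 for the members against High. With no scaling the median of High against Control was 0.20 for the members, 0.20 for complex I, 0.17 for II, 0.20 for III, 0.21 for IV, 0.21 for V and 0.23 for the assembly factors (all genes 0.14), and that of Low against High was -0.21. With no scaling the sign also turned for Ndufaf7 in High against Control (0.083) and for Uqcrc2 (-0.030) and Ndufaf4 (-0.016) in Low against High, and with FPKM for Ndufc1 (0.095) and Uqcr10 (0.20). The cause was not tested. The settings without libraries 56 to 62 and without Control 49 and Low 57 were chosen after seeing the data. No paired analysis was possible because the rats' numbers are not shared between groups. Without read counts, the depth behind a value cannot be given.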

Other observations

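The products of the mitochondrial genome and the nuclear-encoded members did not keep a fixed ratio between rats. The summed scaled coverage of the 13 mitochondrial protein genes was 9.07 to 18.0 times that of the 99 members. It was lowest in Low 57 (9.07) and highest in Low 61 (18.0), both of the same group, and in Control it ran from 10.3 in rat 49 to 17.1 in rat 51. In High it ran from 10.4 to 13.9. Low 57 and Low 61 both belong to libraries 56 to 62, so that set does not have a ratio of its own.

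Among the members the entry with the largest spread in Control was Ndufv3 on chromosome 13, with a coefficient of variation of 49.1% at a median level of 1.18 (n = 8).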
